A study of Mus musculus with 5 samples.

Results

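The genes described are the matrix metalloproteinases (MMPs), the ADAM and ADAMTS proteases and the tissue inhibitors of metalloproteinases (TIMPs), taken as every gene whose symbol begins with Mmp, Adam, Adamts or Timp followed by a digit. With 1 probe set per gene, the rule gave 75 of the 19505 genes with a named probe set, namely 21 MMP, 32 ADAM, 18 ADAMTS and 4 TIMP genes. RNA came from 3T3-L1 cells, an established mouse preadipocyte line, and was hybridised to 5 Clariom S Mouse arrays, 1 per sample. In 3 samples, called MM-3T3-L1s below, confluent preadipocytes were kept for 48 h in RPMI-1640 medium across a transwell membrane from MM.1S cells, a human myeloma line. In the 2 control samples the medium was the same and no myeloma cells were present. All cells were then washed, made into adipocytes with IBMX, dexamethasone and insulin and collected on day 7 of differentiation, so the myeloma cells were gone before differentiation began. Both groups come from 1 cell line in culture without other stromal or immune cells, and the labels do not say whether replicates were separate cultures, so a p-value covers only how far these 5 samples spread, which may be technical.

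MMPs are zinc proteases that are made as inactive precursors and cut collagens, gelatin, proteoglycans and other matrix proteins. ADAMs are membrane proteases that release growth factors, cytokines and receptors from the cell surface, ADAMTS enzymes are secreted relatives that trim proteoglycans, procollagens and microfibrils, and TIMPs bind and block the catalytic site of many of them. Preadipocytes rebuild their fibrous matrix as they round up and fill with lipid, and MMP14, MMP2 and the TIMPs are among the best known actors in that process.

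Values below are log2 signals after robust multi-array averaging (RMA), so a difference of 1 is a 2-fold change. A signal was called above background when its mean over the 5 arrays exceeded 3.59, the 95th percentile over 1450 genes for smell, pheromone and taste receptors, and near background within 0.5 above that level. Array medians were 4.48 and 4.52 in controls and 4.47 to 4.53 in MM-3T3-L1s, and Pearson's r between any pair of arrays was 0.985 to 0.993 across the 22206 probe sets. Of 9 measured adipocyte markers 8 were above background, *Lep* being the exception, and their mean signal was 9.57 to 9.68 in controls and 9.62 to 9.68 in MM-3T3-L1s. Within that list *Retn*, which encodes resistin, fell past both limits used below (log2 fold change -0.63, unadjusted p = 0.037), and *Fabp4*, the fatty acid binding protein of adipocytes, was higher at 0.32 (unadjusted p = 0.024). Markers of preadipocytes and fibroblasts, 5 of 6 above background, averaged 9.04 to 9.10 in controls and 8.84 to 8.95 in MM-3T3-L1s. Of 6 macrophage markers 2 were above background, with a mean signal of 3.29 to 3.35 in controls and 3.40 to 3.49 in MM-3T3-L1s, and the defining genes *Adgre1* and *Csf1r* were below it. Of 6 plasma cell markers, the cell type from which myeloma arises, 2 were above background, and their mean signal was higher in every exposed array, at 3.77 to 3.87 against 3.62 to 3.66 in controls. Of the 2 above background, *Irf4* had a log2 fold change of 0.39 and *Sdc1*, the brightest of the list, had 0.057. Below background, *Cd79a* had 0.34, *Mzb1* 0.29, *Tnfrsf17* 0.077 and *Jchain* -0.10. None of the 6 reached an unadjusted p of 0.05. Over all genes below background, 4828 of 7369 had log2 fold changes above 0, with a median of 0.078. Whether cell makeup differed between the groups, or plays a part in the results below, was not tested. In bulk RNA fewer cells of a type and less RNA per cell cannot be told apart.

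Of the 75 genes, 33 were above background and 42 below it, against 12136 above and 7369 below of all 19505 genes. Above it lay 11 of 21 MMPs, 9 of 32 ADAMs, 9 of 18 ADAMTS genes and all 4 TIMPs. *Mmp17*, *Mmp24*, *Adam33*, *Adam1b* and *Adamts4* were near background. The ADAM genes outside the lists of somatic family members, of which many are known from male germ cells, were below background in 19 of 20 cases, and *Adam1b* was the other one. Of 5 germ cell markers, 4 were below background as well.

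**Figure D1:**
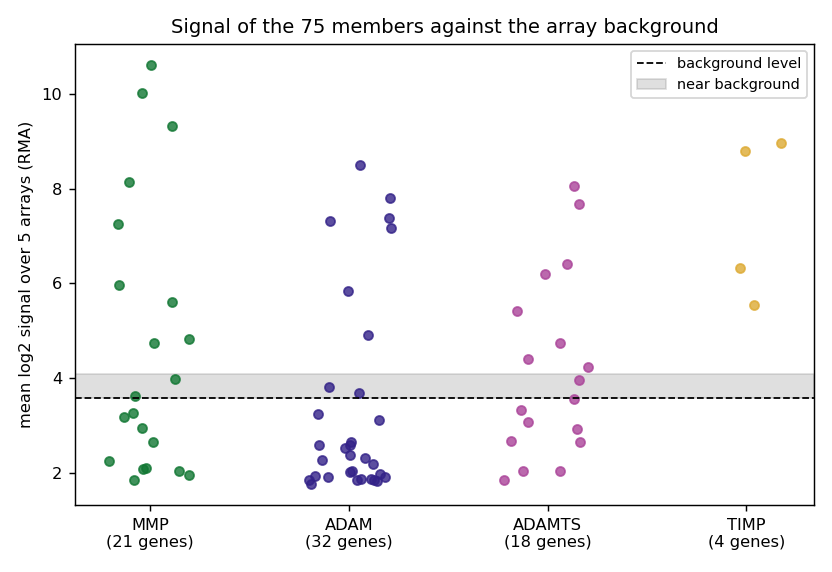
Mean log2 signal over the 5 arrays (vertical axis) of each of the 75 genes, in columns by family. The dashed line is the background level of 3.59 and the grey band spans the 0.5 above it. Of the ADAM genes 23 of 32 sit below the line, while all 4 TIMPs sit above it.

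In MM-3T3-L1s, the proteases that counted as changed were *Mmp9* and *Adamts6*, and both were lower. A gene counted as changed when limma gave an unadjusted p of 0.05 or less and the fold change exceeded 1.5, both limits being those of the paper's methods. None of the 75 genes counted as higher, and 73 counted as neither higher nor lower. The 2 calls are 2.67% of the genes, against 2.35% of all probe sets in either direction, 1.44% lower and 0.91% higher, so their share is near that of the whole array. Of the 33 genes above background they are 6.06%, against 2.94% of such probe sets, 2.04% lower and 0.893% higher. At an unadjusted p of 0.05 or less and any fold change, 10 genes (13.3%) passed, 6 lower and 4 higher, against 7.58% of all probe sets, 4.11% lower and 3.48% higher. Among the 33 genes above background 8 (24.2%) did so, 6 lower and 2 higher, against 8.99% of such probe sets, 5.82% lower and 3.17% higher. With Benjamini-Hochberg adjustment across the 22206 probe sets, no gene passed 0.05 in limma, where the smallest adjusted p was 0.464, nor under any alternative that was run. The median log2 fold change was 0.067 over the 75 genes and 0.0043 over the 33 above background, against 0.011 over all genes and -0.028 over all genes above background.

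By family, the genes above background split unevenly. The 9 ADAMTS genes had a median log2 fold change of -0.39, with 4 of them lower and none higher at an unadjusted p of 0.05 or less. Of all probe sets above background, 5.82% were lower and 3.17% higher at that p. Over all 18 ADAMTS genes, dim ones included, the median was 0.054 and 11 log2 fold changes were above 0. The 11 MMPs had a median of 0.086, with 2 lower and 1 higher. The 9 ADAMs had a median of 0.043 and the 4 TIMPs of 0.11, with no ADAM and 1 TIMP, higher, at that p. The 95% interval of the log2 fold change lay wholly within 1.5-fold in either direction for 39 of the 75 genes (52%), against 54.4% of all probe sets, and for 16 of the 33 above background (48.5%), against 58.1% of such probe sets. Arrays of the groups did not overlap for 25 of the 75 (33.3%), 13 lower and 12 higher, against 24.1% of all probe sets, 12.2% lower and 11.9% higher. Above background this held for 14 of 33 (42.4%), 10 lower and 4 higher, against 27.8% of such probe sets, 17.2% lower and 10.6% higher. With 2 and 3 arrays, 0.1 is the smallest two-sided p that an exact permutation test can reach for 1 gene.

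**Figure D2:**
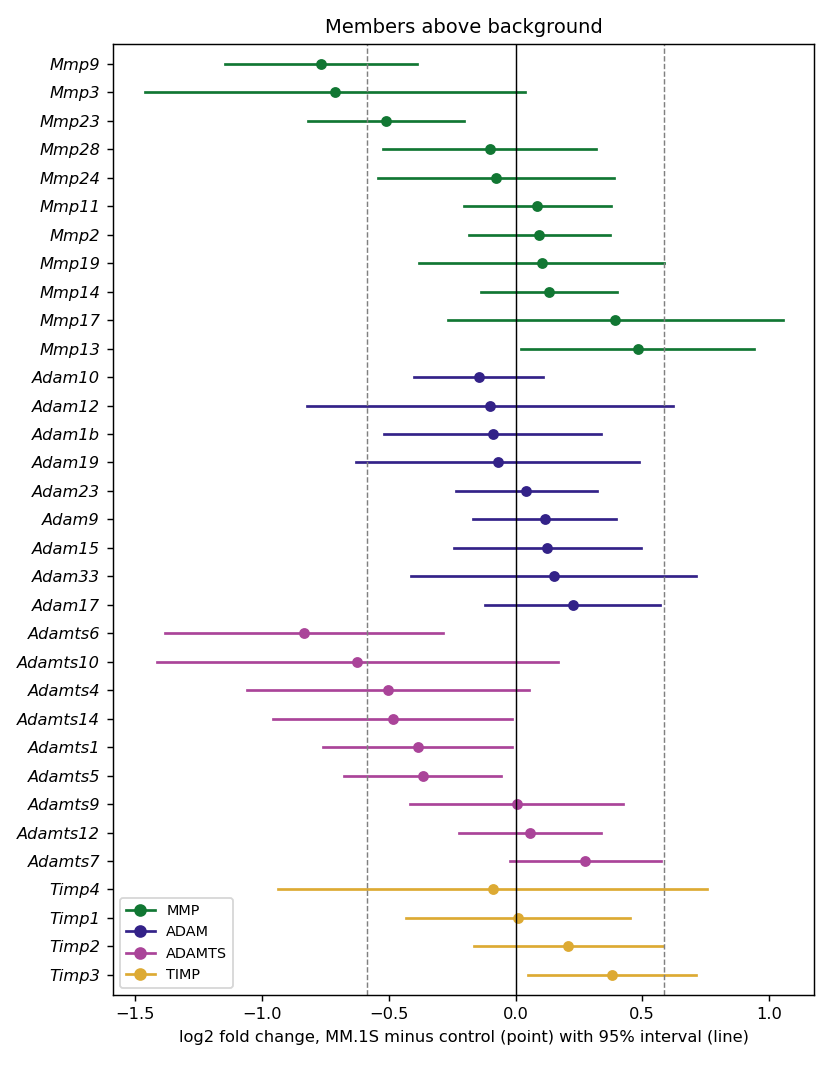
Log2 fold change of MM-3T3-L1s against controls (horizontal axis, points) with its 95% interval from limma (lines) for the 33 genes above background, ordered by family. Dashed lines mark a 1.5-fold change in either direction. The intervals of *Mmp9*, *Mmp23* and *Adamts6* lie below 0 by the widest margin, and 6 of 9 ADAMTS points are below 0.

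The gelatinases MMP2 and MMP9 cut denatured collagen and basement membrane collagen. *Mmp9* had log2 signals of 5.11 and 5.44 in controls and of 4.66, 4.39 and 4.48 in MM-3T3-L1s. All 3 exposed arrays thus lay below both controls, with a gap wider than the distance between the controls. The difference was -0.77 (SE 0.15, 95% interval -1.15 to -0.39), a 1.70-fold lower signal, with an unadjusted p of 0.0027 and an adjusted p of 0.464 in limma. The one-way ANOVA of the methods gave a p of 0.017. The gene passed the thresholds under every alternative except a fold change limit of 1.8, and the log2 fold change was -0.60 to -0.93 when single arrays were left out. *Mmp2* was at 10.47 and 10.64 in controls and 10.62, 10.68 and 10.64 in MM-3T3-L1s, and the groups overlapped. Its difference was 0.095 with a 95% interval of -0.18 to 0.37, so the interval holds no 1.5-fold change of the second gelatinase.

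**Figure D3:**
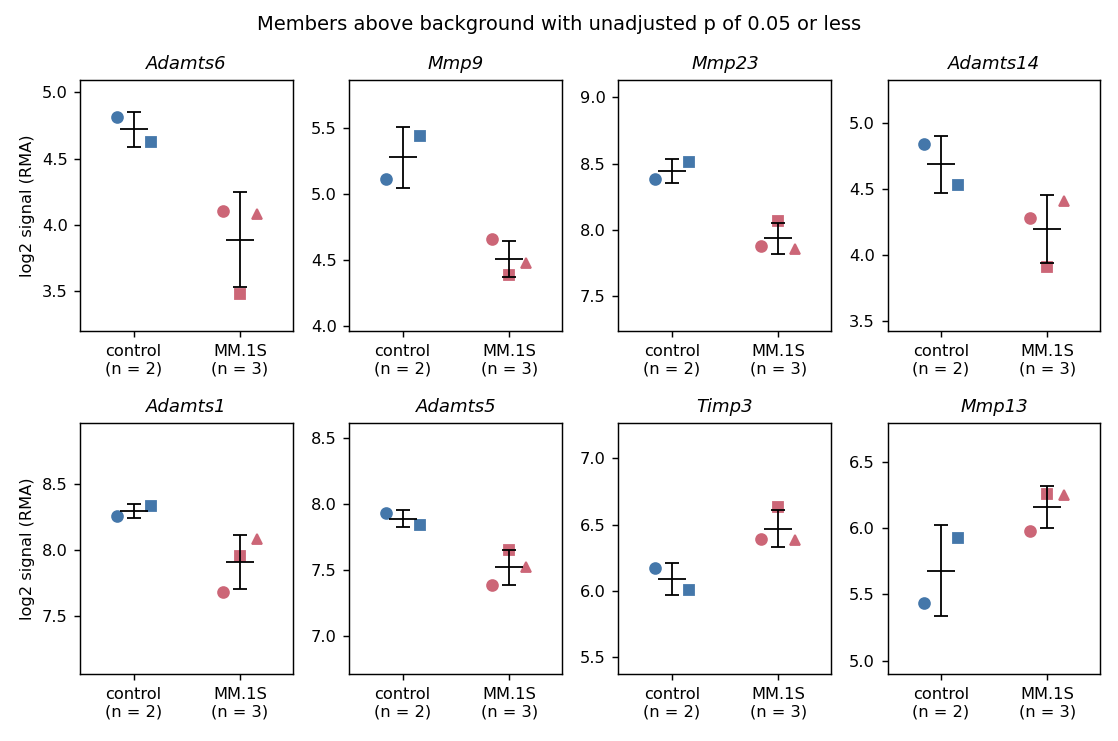
Log2 signal (vertical axis, each panel with the same span on its own level) of the 8 genes above background with an unadjusted p of 0.05 or less, in order of log2 fold change. Points are single arrays (circle, square and triangle for replicates 1, 2 and 3), horizontal bars the means and error bars the SD. In every panel the 3 MM.1S arrays lie on 1 side of both controls.

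A block of MMP genes on chromosome 9 holds the interstitial collagenases, the stromelysins, the matrilysin and the macrophage elastase side by side. In the RefSeq gene table the order is *Mmp13*, *Mmp12*, *Mmp1b*, *Mmp3*, *Mmp1a*, *Mmp10*, *Mmp8*, *Mmp27*, *Mmp20* and *Mmp7*, and all but *Mmp27* could be measured. Many of these genes are known to carry a binding site for the AP-1 transcription factor just ahead of their start. The letters of that site, TGAGTCA on either strand (which is TGACTCA on the other), were searched from 250 bases before to 50 bases after each annotated start. Windows of 7 of the 9 measured genes held them, all but *Mmp8* and *Mmp20*, against 1607 of 27025 genes (5.95%) of the promoter table. Over the 45 of 75 genes with a window, 10 (22.2%) held the letters, which were 7 of 16 MMPs, 3 of 16 ADAMs, 0 of 9 ADAMTS genes and 0 of 4 TIMPs. A match of letters is a description and does not show that the site is used in these cells.

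The last 110 bases before the start are given for the genes of the block that were above background or had an unadjusted p of 0.05 or less, so that their measured values can be set beside the shared letters, which are in capitals. All are RefSeq sequences of GRCm38.p6 on the plus strand, at chr9:7272404-7272513 for *Mmp13*, chr9:7347264-7347373 for *Mmp12* (1 of its 2 annotated windows), chr9:7445712-7445821 for *Mmp3* and chr9:7502232-7502341 for *Mmp10*. Counted back from the start, the capitals begin at base -35, -44, -46 and -63, respectively.
Mmp13: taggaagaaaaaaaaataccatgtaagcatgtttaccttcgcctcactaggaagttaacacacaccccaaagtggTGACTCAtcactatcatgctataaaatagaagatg
Mmp12: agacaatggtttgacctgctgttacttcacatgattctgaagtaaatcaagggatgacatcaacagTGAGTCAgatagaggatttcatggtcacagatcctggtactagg
Mmp3: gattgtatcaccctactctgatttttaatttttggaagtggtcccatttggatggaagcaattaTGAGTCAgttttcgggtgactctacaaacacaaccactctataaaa
Mmp10: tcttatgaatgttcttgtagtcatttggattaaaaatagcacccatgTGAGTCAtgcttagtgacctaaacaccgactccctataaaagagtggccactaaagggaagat

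Of these 4 genes, *Mmp13*, *Mmp12* and *Mmp10* had log2 fold changes above 0 and *Mmp3* had one below 0, with an interval that includes 0. The 4 were chosen after their values were seen, and whether the letters bear on the values was not tested. *Mmp13*, the main interstitial collagenase of rodents, was at 5.44 and 5.92 in controls and 5.98, 6.26 and 6.25 in MM-3T3-L1s. The groups did not overlap, although the higher control came within 0.1 of the lowest exposed array. The log2 fold change was 0.48 (SE 0.19, 95% interval 0.022 to 0.94) with an unadjusted p of 0.043, short of the 1.5-fold limit. The limma p was 0.11 without MM.1S replicate 2 and 0.11 without replicate 3, at a log2 fold change of 0.44 each time. The methods' ANOVA gave a p of 0.11, and limma gave 0.0502 with median centring and 0.056 with array weights. Leaving out control replicate 1 or 2, which leaves 1 control, gave log2 fold changes of 0.24 and 0.73 for *Mmp13*. *Mmp3*, stromelysin 1, which cuts proteoglycans and activates other MMPs, was at 4.83 and 5.50 in controls and 4.78, 4.59 and 3.99 in MM-3T3-L1s. Its exposed arrays lay below both controls, with a gap of under 0.05 to the nearer one. On the log2 scale a fold change of -0.71 (SE 0.30, 95% interval -1.46 to 0.037) had an unadjusted p of 0.059, so the size was above 1.5-fold and the p limit was not met.

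*Mmp12*, the macrophage elastase, and *Mmp10*, stromelysin 2, were below background in every array. *Mmp12* was at 1.72 and 1.95 in controls and 2.36, 2.14 and 2.29 in MM-3T3-L1s, where the log2 fold change was 0.43 (SE 0.13, unadjusted p = 0.020). *Mmp10* was at 1.79 and 1.81 in controls and 2.45, 2.20 and 1.97 in MM-3T3-L1s, where it was 0.41 (SE 0.16, unadjusted p = 0.047). Signals at this level are those of receptor genes that adipocytes do not use. Of the 6 macrophage markers, *Ptprc* and *Lyz2* were above background at mean signals of 4.11 and 5.45, and *Adgre1*, *Csf1r*, *Itgam* and *Mrc1* were below it. Their log2 fold changes were 0.12 for *Ptprc*, 0.22 for *Lyz2*, 0.26 for *Itgam*, 0.25 for *Mrc1*, -0.070 for *Adgre1* and -0.044 for *Csf1r*, none with an unadjusted p of 0.05 or less. The other members of the block, *Mmp1a*, *Mmp1b*, *Mmp7*, *Mmp8* and *Mmp20*, were below background with log2 fold changes from -0.21 to 0.24. *Mmp1a* and *Mmp1b* are close copies, so their separate values are uncertain. *Mmp11*, stromelysin 3, lies outside the block and is known from stromal cells. It was at 9.87 and 10.05 in controls and 10.03, 10.00 and 10.12 in MM-3T3-L1s, and its log2 fold change was 0.086 with a 95% interval of -0.20 to 0.37.

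**Figure D4:**
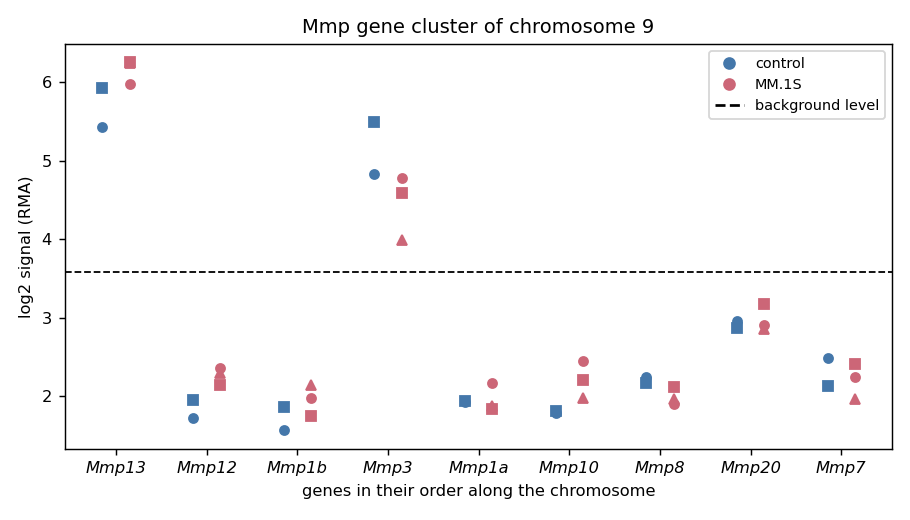
Log2 signal (vertical axis) of the 9 measured MMP genes of the chromosome 9 block, in their order along the chromosome, for control and MM.1S arrays (marker shapes as replicates 1 to 3). The dashed line is the background level of 3.59. *Mmp13* and *Mmp3* are above it, with the exposed arrays above the controls for *Mmp13* and below them for *Mmp3*.

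Membrane-type MMPs act at the cell surface. *Mmp14*, the membrane collagenase that also activates the MMP2 precursor, was at 9.24 and 9.25 in controls and 9.46, 9.32 and 9.35 in MM-3T3-L1s. All exposed arrays were above both controls, yet the difference was small, at 0.13 (SE 0.11, 95% interval -0.14 to 0.40, unadjusted p = 0.27) on the log2 scale. *Mmp17* and *Mmp24* were near background at 0.39 and -0.078, and *Mmp16* and *Mmp25* were below it. No gene of the 5 measured ones passed an unadjusted p of 0.05.

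Of the remaining MMPs, *Mmp23* showed the clearest difference. It encodes an unusual MMP that sits in the membrane through its front end and is freed by cleavage. *Mmp23* was at 8.38 and 8.51 in controls and 7.88, 8.07 and 7.86 in MM-3T3-L1s. The 3 exposed arrays were below both controls, with a gap between the groups larger than the distance between the arrays of either group. Its log2 fold change was -0.51 (SE 0.12, 95% interval -0.82 to -0.20), a 1.42-fold lower signal that did not reach the 1.5-fold limit. The unadjusted p was 0.0068 in limma (adjusted p = 0.528) and 0.015 in the methods' ANOVA, and it stayed at 0.05 or less under every alternative, at log2 fold changes of -0.45 to -0.58 when single arrays were left out. *Mmp19* and *Mmp28*, which are expressed in many resting tissues, had log2 fold changes of 0.10 (95% interval -0.38 to 0.59) and -0.10 (95% interval -0.52 to 0.32). *Mmp19* was at 7.17 and 7.22 in controls and ranged from 6.94 to 7.52 in MM-3T3-L1s, so the exposed arrays lay on both sides of the controls. Without MM.1S replicate 3 its log2 fold change was 0.28 with an unadjusted p of 0.043.

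Among the ADAM sheddases no gene counted as changed. *Adam17*, the converting enzyme of TNF that also frees EGF receptor ligands and the IL-6 receptor, was at 7.18 and 7.31 in controls and 7.57, 7.28 and 7.57 in MM-3T3-L1s. Replicate 2 of the exposed samples lay between the controls and the others above them. This gave a log2 fold change of 0.23 (SE 0.14, 95% interval -0.12 to 0.57), and the unadjusted p of 0.16 became 0.046 without that replicate, at 0.32. *Adam10*, the sheddase of Notch and cadherins, was at 7.42 and 7.38 in controls and 7.25, 7.22 and 7.29 in MM-3T3-L1s. The groups did not overlap and the arrays of each lay within 0.1, so the methods' ANOVA gave a p of 0.016 for a log2 fold change of only -0.15 (SE 0.10, 95% interval -0.40 to 0.11). Limma, which shares the spread between genes, gave 0.21.

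*Adam9* and *Adam15*, both broadly expressed, had log2 fold changes of 0.11 (95% interval -0.17 to 0.40) and 0.12 (95% interval -0.24 to 0.49). *Adam12*, which marks mesenchymal precursors and is known to affect adipogenesis, was at 6.32 and 5.48 in controls and 5.84, 6.07 and 5.49 in MM-3T3-L1s. Its 2 controls were the highest and the lowest of the 5 arrays, and the 95% interval of -0.82 to 0.62 leaves changes above 1.5-fold possible in either direction. *Adam19* had an interval of -0.63 to 0.49, while *Adam8* and *Adam28*, known from leukocytes, were below background. *Adam23*, which lacks protease activity and binds integrins, was at 8.47 and 8.46 in controls and 8.46, 8.45 and 8.62 in MM-3T3-L1s. Its relatives *Adam11* and *Adam22*, best known from the nervous system, were below background.

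ADAMTS enzymes that cut large proteoglycans such as versican and aggrecan had lower values in all exposed arrays than in both controls for 3 of the 4 above background, and none of the 3 passed the 1.5-fold limit. Of all probe sets above background, 17.2% were lower without overlap. *Adamts5*, the main aggrecanase of mice, was at 7.93 and 7.84 in controls and 7.39, 7.65 and 7.53 in MM-3T3-L1s. *Adamts1*, which also restrains vessel growth, was at 8.25 and 8.33 in controls and 7.68, 7.95 and 8.08 in MM-3T3-L1s. These genes lie next to each other on chromosome 16 in the RefSeq gene table. Their log2 fold changes were -0.37 (SE 0.13, 95% interval -0.68 to -0.056, unadjusted p = 0.028) for *Adamts5* and -0.39 (SE 0.15, 95% interval -0.76 to -0.014, unadjusted p = 0.044) for *Adamts1*. *Adamts4*, another aggrecanase near background, was at 4.28 and 4.22 in controls and 4.00, 3.93 and 3.32 in MM-3T3-L1s, with a difference of -0.50 (SE 0.23) on the log2 scale and an unadjusted p of 0.069. *Adamts9* had 0.0043 with a 95% interval of -0.41 to 0.42 and overlapping arrays. *Adamts8*, *Adamts15* and *Adamts20* were below background.

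The limma p of *Adamts5* was above 0.05 without MM.1S replicate 1 (log2 fold change -0.30) and 0.071 with replicate number as a block. That of *Adamts1* was above 0.05 without MM.1S replicate 1 (-0.27) or MM.1S replicate 2 (-0.41). It was 0.070 after quantile normalization once more, and the methods' ANOVA gave 0.088. Without control replicate 1 or 2, which leaves 1 control, log2 fold changes were -0.32 and -0.41 for *Adamts5*. For *Adamts1* they were -0.43 and -0.35. The limma p of *Adamts4* was 0.042 without MM.1S replicate 3, at -0.29. Preadipocyte and fibroblast markers averaged 8.84 to 8.95 in MM-3T3-L1s against 9.04 to 9.10 in controls, but did not move together. *Dlk1*, *Vim* and *Col1a1* had log2 fold changes of -0.45, -0.33 and -0.33, *S100a4* had -0.018 and *Thy1* had 0.12. *Cd34* was below background. Whether these markers bear on the ADAMTS values was not tested.

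*Adamts6*, which takes part in the processing of fibrillin microfibrils, was the second gene past the thresholds. It was at 4.82 and 4.63 in controls and 4.10, 3.48 and 4.08 in MM-3T3-L1s. Its mean over the 5 arrays was 4.22. That is below 4.25, the 99th percentile of the receptor genes, which 27 of the 75 genes exceeded. The exposed arrays were all below the controls, and replicate 2 was below the background level of 3.59. This was a log2 fold change of -0.84 (SE 0.22, 95% interval -1.38 to -0.29), a 1.78-fold lower signal, with an unadjusted p of 0.010 and an adjusted p of 0.539 in limma. The call was lost without control replicate 1, at -0.74 with a p of 0.088, in the methods' ANOVA with a p of 0.056, and at a fold change limit of 1.8. *Adamts10*, its closest relative, was at 5.24 and 5.00 in controls and 3.88, 4.94 and 4.67 in MM-3T3-L1s. The low value of replicate 1 widened its interval, and the log2 fold change of -0.62 (SE 0.32, 95% interval -1.41 to 0.17) had an unadjusted p of 0.10. Without MM.1S replicate 2, *Adamts10* passed both thresholds.

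*Adamts14*, one of the enzymes that remove the amino-terminal propeptide of fibrillar procollagens, was at 4.84 and 4.53 in controls and 4.28, 3.91 and 4.41 in MM-3T3-L1s. The groups did not overlap, with a log2 fold change of -0.49 (SE 0.19, 95% interval -0.96 to -0.015) and an unadjusted p of 0.045. That p was above 0.05 without MM.1S replicate 1 or 2, and 0.057 in limma with an intensity trend and robust prior. The methods' ANOVA gave 0.12. Without single arrays the log2 fold change was -0.33 to -0.64. *Adamts3*, of the same subgroup, was below background. *Adamts7* and *Adamts12*, which cut cartilage oligomeric matrix protein, had log2 fold changes of 0.28 (95% interval -0.022 to 0.57) and 0.058 (95% interval -0.22 to 0.34). *Adamts7* was at 5.30 and 5.19 in controls and 5.46, 5.64 and 5.46 in MM-3T3-L1s, without overlap, and its unadjusted p was 0.064. The other 5 ADAMTS genes, *Adamts13*, *Adamts16*, *Adamts17*, *Adamts18* and *Adamts19*, were below background, with log2 fold changes from -0.053 to 0.26.

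All 4 inhibitors were above background, and none passed both thresholds. *Timp3*, which stays bound to the matrix and blocks ADAM17 and the aggrecanases ADAMTS4 and ADAMTS5 besides MMPs, was at 6.17 and 6.004 in controls and 6.39, 6.63 and 6.39 in MM-3T3-L1s. The 3 exposed arrays were above both controls. Its log2 fold change of 0.38 (SE 0.13, 95% interval 0.051 to 0.71), a 1.30-fold higher signal, had an unadjusted p of 0.030 in limma. That p was 0.065 without MM.1S replicate 2 (0.30) and 0.053 with replicate number as a block, and the methods' ANOVA gave 0.052. Without control replicate 1 or 2, which leaves 1 control, the log2 fold changes were 0.47 and 0.30. *Timp2*, which is needed for the activation of MMP2 by MMP14, was at 8.66 and 9.01 in controls and 9.06, 9.15 and 8.93 in MM-3T3-L1s. One control lay below all exposed arrays and the other among them, with a log2 fold change of 0.21 (95% interval -0.16 to 0.58).

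*Timp1*, a secreted inhibitor that inflammatory signals are known to induce, was at 8.54 and 9.01 in controls and 8.82, 8.90 and 8.63 in MM-3T3-L1s. The exposed arrays all lay between the controls, and the log2 fold change was 0.0091 with a 95% interval of -0.43 to 0.45. *Timp4*, known from adipose tissue and heart, was at 5.62 and 5.55 in controls and 5.32, 6.17 and 4.99 in MM-3T3-L1s. Its exposed arrays lay on both sides of the controls with an SD of 0.61, so the 95% interval of -0.94 to 0.76 allows changes above 1.5-fold either way.

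**Figure D5:**
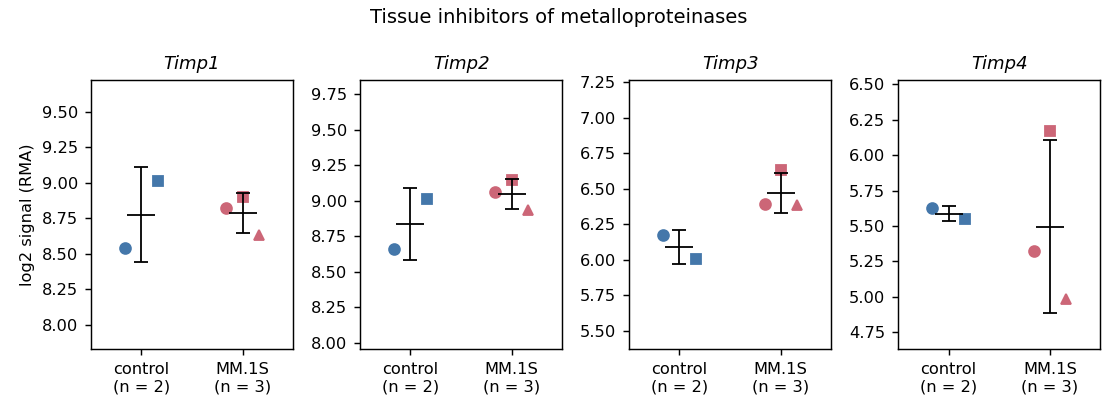
Log2 signal (vertical axis, each panel with the same span on its own level) of the 4 TIMP genes. Points are single arrays (circle, square and triangle for replicates 1, 2 and 3), horizontal bars the means and error bars the SD. Of the 4 genes, the groups do not overlap for *Timp3*, and the exposed arrays of *Timp4* spread from 4.99 to 6.17.

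Genes that regulate these proteases or are cut by them were measured from lists, and 0 of 55 passed both thresholds. At an unadjusted p of 0.05 or less 2 were higher and 2 lower, or 4 of 55, which is near the 7.58% of all probe sets. In the list of activators, inhibitors and partners 2 of 25 were higher at an unadjusted p of 0.05 or less and none lower. Of these, *Cd44*, the hyaluronan receptor that docks MMP9 at the cell surface, was at 7.30 and 7.46 in controls and 7.93, 8.19 and 7.68 in MM-3T3-L1s. Its exposed arrays lay above both controls. The difference was 0.56 on the log2 scale (SE 0.17, 95% interval 0.13 to 0.99, unadjusted p = 0.020). The other one, *Tspan15*, a partner of ADAM10, was below background. *Reck*, a membrane inhibitor of MMPs, and *Bsg*, a surface glycoprotein that induces MMPs in neighbouring cells, had log2 fold changes of -0.40 (95% interval -0.81 to 0.016) and -0.32 (95% interval -0.64 to 0.0023). *Plaur*, the urokinase receptor, had 0.43 (95% interval -0.026 to 0.89). The limma p of *Cd44* was 0.055 without MM.1S replicate 1, at a log2 fold change of 0.56, and the methods' ANOVA gave 0.066. Leaving out control replicate 1 or 2, which leaves 1 control, gave log2 fold changes of 0.47 and 0.64 for *Cd44*.

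Among 17 other metzincins, their helpers and ADAMTS-like proteins, 1 gene was lower at that p and none higher. This was *Pcolce*, which speeds up the trimming of procollagen at its carboxyl end, at 10.72 and 10.69 in controls and 10.37, 10.44 and 10.47 in MM-3T3-L1s. Its log2 fold change was -0.28 (SE 0.11, unadjusted p = 0.040). Of 13 matrix substrates, 1 was lower and none higher. *Col3a1*, of fibrillar type III collagen, was at 10.44 and 10.32 in controls and 9.88, 9.97 and 10.09 in MM-3T3-L1s, with a log2 fold change of -0.40 (SE 0.12, unadjusted p = 0.018). For both genes every exposed array lay below both controls. Without control replicate 1, which leaves 1 control, the log2 fold change of *Col3a1* was -0.34. The limma p of *Pcolce* was above 0.05 without MM.1S replicate 1 or 2. It was 0.062 after quantile normalization once more, 0.05005 with median centring and 0.083 with replicate number as a block. Without single arrays the log2 fold change of *Pcolce* was -0.25 to -0.30. *Col1a1* and *Col1a2* had log2 fold changes of -0.33 (95% interval -0.70 to 0.039) and -0.29 (95% interval -0.59 to 0.0045). *Eln*, which encodes elastin, and *Col4a1*, of basement membrane collagen, had 0.27 (95% interval -0.098 to 0.64) and 0.18 (95% interval -0.10 to 0.46). Arrays of the groups did not overlap for 7 of the 13 substrates, 5 lower and 2 higher, all of them among the 11 above background. Of all probe sets above background, 27.8% did not overlap, 17.2% lower and 10.6% higher.

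For the 42 genes below background, differences are reported as counts. Of their log2 fold changes 31 were above 0 and 11 below, with a median of 0.092. Over all genes below background, 4828 of 7369 were above 0, with a median of 0.078. Besides *Mmp10* and *Mmp12* no gene below background had an unadjusted p of 0.05 or less. The sizes ran from -0.51 for *Adam4* to 0.67 for *Adamts15*. Without MM.1S replicate 1, *Adam4*, *Adam7* and *Adam26b* passed both thresholds, and *Adamts15* did without control replicate 2.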

How the data were processed

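From the array scans the authors computed log2 signals by RMA in Partek Genomics Suite, per the labels and the paper's methods, and deposited those; the background was thus already corrected and probes were normalized and summarised into probe sets. Whether the 5 arrays were normalized alone is not given in the sources used here. No probe set was filtered. Symbols came from the platform annotation supplied with the values, and all 75 matched the RefSeq table (GRCm38.p6) by Entrez ID. No gene had more than 1 probe set. Groups were set against each other with limma 3.58.1 (lmFit, then eBayes; R 4.3.3) on all 22206 probe sets, two-sided, with 3 residual degrees of freedom. Intervals are 95% intervals of that fit, SE its standard error, and SD the spread between arrays of a group. The number of arrays limits the precision. The fit was tested on simulated data.

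The members and lists were chosen with earlier results of these data known. The rule for naming genes took genes past the thresholds, those above background with an unadjusted p of 0.05 or less, the TIMPs and genes of known stromal role. *Mmp10*, *Mmp12*, *Adamts10*, *Adamts7*, *Tspan15* and others outside it, and the 4 promoters shown, were chosen after their values were seen. *Mmp15*, *Mmp27*, *Adamts2*, *Serpine2* and *Fbn1* of the lists were not analysed here. No promoter sequence is given for *Mmp9* and *Adamts6*. The alternatives were the methods' one-way ANOVA, an intensity trend with a robust prior, leaving out dim probe sets, quantile normalization once more, median centring, replicate number as a block, array weights, the median over probe sets, a fold change limit of 1.8, other background rules and leaving out each array.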

Additional observations from a re-analysis of the deposited data

How the results depend on the processing

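*Mmp9* and *Mmp23* kept their direction and their p of 0.05 or less under every alternative. Against 0 higher and 2 lower genes past the thresholds, there was 1 lower with the methods' ANOVA, 0 at a fold change limit of 1.8 and 1 higher with the replicate block. Without single arrays there were 0 to 2 higher and 1 to 3 lower. At an unadjusted p of 0.05 or less, against 4 higher and 6 lower, 2 were higher with the ANOVA or without dim probe sets, and 2 to 4 higher and 3 to 7 lower without single arrays. Of all probe sets, 202 higher and 320 lower became 104 and 180 with the ANOVA, 42 and 93 at 1.8, 121 higher without dim ones, and 216 to 352 and 301 to 415 without single arrays. The labels do not say whether equally numbered arrays share more than a number. Their deviations from the group means correlated at -0.027 and 0.060. With 2 controls, whose deviations mirror each other, these values cannot settle whether a batch was shared. MM.1S replicate 3 has no control of its number, so with the block it adds nothing to the comparison. The block's log2 fold changes are therefore those without that array. The block called 4 genes, *Adamts14* and *Adamts15* in addition. The members' median of 0.067 became 0.0043 without dim probe sets, 0.047 after quantile normalization and 0.039 to 0.094 without single arrays. Regulator and substrate genes, 2 higher and 2 lower at that p, became 0 higher with the ANOVA, 1 higher and 4 lower without dim probe sets, 4 higher with quantile normalization or array weights, 6 lower with the trend, 1 lower with centring, 5 lower with the block, and 0 to 4 higher and 2 to 4 lower without single arrays. Past both thresholds, 1 passed with quantile normalization or array weights, 3 with the block and 0 to 2 without single arrays. Among the genes named by rule, signs turned for a few. With the block these were *Adam12* (0.055), *Adam19* (0.080) and *Timp4* (0.16), the same values as without MM.1S replicate 3. With array weights *Adam19* (0.019) turned and with centring *Adamts9* (-0.0024). Without single arrays the log2 fold change was -0.52 to 0.32 for *Adam12*, -0.27 to 0.13 for *Adam19*, -0.090 to 0.14 for *Adamts9*, -0.0082 to 0.12 for *Adamts12*, -0.0039 to 0.18 for *Mmp11*, -0.0043 to 0.28 for *Mmp19*, -0.23 to 0.25 for *Timp1* and -0.43 to 0.16 for *Timp4*. The causes were not tested.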
